A study of Homo sapiens with 9 samples.

Results

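The phase II conjugating enzymes described here were 33 of the 17687 genes measured in HepG2 cells. They comprised 7 UDP-glucuronosyltransferases of the UGT2B subfamily, 10 sulfotransferases (SULT) and 16 glutathione S-transferases (GST). A gene was included where its platform symbol was that of a UGT1 or UGT2 enzyme of subfamily A or B, of a SULT enzyme, or of a GST of class alpha, mu, pi, theta, omega, zeta or kappa. A transcript cluster is the unit the array measures, and a gene with several was represented by its brightest one on average. Symbols and average signal alone decided this, without a difference between groups, though the members were chosen with earlier results of these data known. RefSeq lists 50 protein-coding genes with such symbols, and 18 of them were not analysed here, among them 9 UGT1A genes, 3 UGT2A genes, GSTT1 and SULT1A2. GSTT2, a transcribed pseudogene in RefSeq, was the 1 member outside those 50.

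HepG2 is an established human liver cancer line that retains many hepatocyte functions. The cells were either left untreated or given recombinant SPARC, a secreted protein that binds collagen, at 200 or 800 ng/ml, and total RNA was taken 24 h later. Each of these 3 groups had 3 single-colour arrays, and all 9 arrays came from this 1 line. No vehicle is named for the untreated cells, and no label states that the replicates were separate cultures, so p-values reflect no more than the variation among these samples, possibly technical. All signals are the deposited values, taken as log2 from their range, and a difference of 1 is therefore a change of 2-fold. The table gives no detection call, so a low signal is reported as a signal only.

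Phase II enzymes attach a polar group to drugs, hormones, bile acids and reactive metabolites, which are then exported in bile or urine. UGT enzymes sit in the endoplasmic reticulum and transfer glucuronic acid from UDP-glucuronic acid, cytosolic SULT enzymes transfer a sulfonate group from the donor PAPS, and GST enzymes couple electrophiles to glutathione. Liver is the principal site of all these reactions, and hepatocyte-derived lines are used to study them.

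The families arose by gene duplication and lie in clusters, with all 7 UGT2B genes on chromosome 4, the 5 alpha class GST genes on chromosome 6 and the 5 mu class genes on chromosome 1. The start regions of the closest pairs are shown because they let the likeness of neighbouring members be seen. RefSeq promoters of assembly GRCh38.p14 (250 bases before and 50 after the transcript start, 300 in all) were found for 27 of the 33 members. Capitals mark bases that differ from the partner or face a gap in the pairwise alignment. GSTA1 and GSTA2, the major alpha class enzymes of liver, lie on the minus strand at chr6:52803767-52804066 and chr6:52763426-52763725, and 288 of their 300 bases were identical (96%).
GSTA1: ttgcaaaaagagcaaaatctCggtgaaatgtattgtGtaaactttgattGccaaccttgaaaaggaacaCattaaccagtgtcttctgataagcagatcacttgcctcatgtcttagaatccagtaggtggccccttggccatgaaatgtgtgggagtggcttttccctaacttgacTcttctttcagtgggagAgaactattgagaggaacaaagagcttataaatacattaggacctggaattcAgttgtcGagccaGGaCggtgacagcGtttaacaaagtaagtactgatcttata
GSTA2: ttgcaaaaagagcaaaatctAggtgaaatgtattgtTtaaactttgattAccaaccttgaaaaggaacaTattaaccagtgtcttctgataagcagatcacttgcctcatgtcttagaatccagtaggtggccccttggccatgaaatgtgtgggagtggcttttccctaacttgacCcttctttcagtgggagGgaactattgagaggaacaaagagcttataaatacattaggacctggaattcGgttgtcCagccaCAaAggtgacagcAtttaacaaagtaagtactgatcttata
UGT2B10 on the plus strand at chr4:68815744-68816043 and UGT2B11 on the minus strand at chr4:69214699-69214998 were identical at 274 of 296 aligned bases.
UGT2B10: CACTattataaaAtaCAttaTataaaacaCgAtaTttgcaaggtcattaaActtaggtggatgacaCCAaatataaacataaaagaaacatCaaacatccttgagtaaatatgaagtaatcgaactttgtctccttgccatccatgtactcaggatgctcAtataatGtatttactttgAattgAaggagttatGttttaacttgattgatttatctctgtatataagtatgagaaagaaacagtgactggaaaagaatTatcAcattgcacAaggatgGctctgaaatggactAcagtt
UGT2B11: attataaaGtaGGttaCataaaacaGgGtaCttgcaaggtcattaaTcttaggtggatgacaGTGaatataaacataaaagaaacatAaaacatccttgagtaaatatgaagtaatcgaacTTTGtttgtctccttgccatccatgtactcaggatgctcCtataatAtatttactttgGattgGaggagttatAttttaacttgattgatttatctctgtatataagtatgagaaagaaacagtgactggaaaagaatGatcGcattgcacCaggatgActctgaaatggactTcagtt
GSTM1 and GSTM5 shared 86.7% of the 300 bases, whereas GSTO1 and GSTO2, which are neighbours of the omega class, shared 53.7%. The other alpha class pairs were also less alike in this window, at 51% to 57%, and the SULT1 pairs shared 47% to 54.7%. These windows lie mostly outside the transcript and do not measure how alike the transcripts are. The families hold close paralogs, whose transcripts a probe set can share, so signals of single members are uncertain to that extent. Probe and transcript sequences were not used here.

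Short motifs of liver and stress regulators were searched on both strands of these windows, and a match was counted whether or not it overlapped another. GTTAAT, a core of the site of the hepatocyte factor HNF1, was in 3 of the 27 member promoters (11.1%: GSTA1, GSTA2 and SULT1E1), against 6.89% of all 27305 promoters of the same length. In GSTA1 and GSTA2 it began at the same place, base −180 from the start. TGACNNNGC, the core of the antioxidant response element bound by NRF2, was in 8 (29.6%), against 13.6% of all promoters, and these were GSTA4, GSTM1, GSTM5, GSTO1, GSTP1, SULT1C2, UGT2B10 and UGT2B11. GCGTG, the core of the xenobiotic response element bound by the aryl hydrocarbon receptor, was in 6 (22.2%, against 36.3%), and CCAAT was in 7 (25.9%, against 35.7%). TATAAA was in 9 (33.3%, against 12%). The members with a match include the similar pairs GSTA1 with GSTA2, GSTM1 with GSTM5 and UGT2B10 with UGT2B11, so the shares do not count independent sites. A match is a description of these letters only, and the arrays did not measure binding.

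The array of untreated replicate 2 was unlike the others, which touches every comparison with untreated cells. Over all 21448 transcript clusters its correlation with each other array was 0.891 to 0.920, whereas the other 8 arrays correlated at 0.979 to 0.991. Its signals also had a narrower SD over clusters, 1.67, against 1.91 to 2.0. Counts and medians over all members are therefore given, in each comparison, for all 9 arrays and for the 8 arrays without this replicate. A difference printed without its array set is that of all 9 arrays. The hepatocyte list had 9 of 10 markers measured, and its mean signal was 10.01 to 10.33 in untreated cells, 10.21 to 10.27 at 200 ng/ml and 10.29 to 10.31 at 800 ng/ml. Of the astrocyte and neuron list 12 of 12 markers were measured, with a mean signal of 4.06 to 4.56 in untreated cells and 4.13 to 4.28 at 200 ng/ml. At 800 ng/ml it was 4.20 in replicate 1, against 5.71 and 5.62 in replicates 2 and 3. Not all markers of this list shared the pattern. In 800 ng/ml replicates 1, 2 and 3 GFAP had 4.54, 7.88 and 7.75, and NTRK2 had 3.63, 6.96 and 7.28. By contrast SYT1 had 3.19, 3.14 and 3.09, RBFOX3 had 4.91, 5.20 and 4.69, and SLC1A2 had 6.71, 6.88 and 6.97. Mean signals of blood, endothelial and fibroblast markers were highest of the 9 arrays in untreated replicate 2, at 7.01, 4.79 and 5.54 (7, 6 and 5 markers measured). Dim genes in general were raised in this array. Its median deviation from the mean of the other 8 arrays was 0.35 over the dimmest 25% of all genes and 0.52 over the next 25%. Single markers went the other way, as CD68, LYZ and ACTA2 were lowest in this array, at 7.15, 11.37 and 7.35. The part of these markers in the results below was not tested.

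Among the conjugating enzymes untreated replicate 2 was the lowest of the 9 arrays for 13 members and the highest for 8, which are 39.4% and 24.2% of the members, against 41.7% and 32.5% of all genes. The bright members were all on the low side. All 7 members among the 4422 brightest genes were lowest in this array, with a median deviation of −1.05 from the mean of the other 8 arrays, against −0.78 over all genes of that brightness. Of these 7, GSTO1, UGT2B10, GSTK1 and GSTM4 differed by −1.30, −1.20, −1.13 and −1.05 from the mean of untreated replicates 1 and 3. SULT2A1 had −0.84 and SULT1A1 had −0.56, whereas GSTA4, another bright member, had −0.05. Several dimmer members lay on the other side, with 1.20 for GSTP1, 0.86 for GSTA3, 0.82 for UGT2B4 and 0.81 for SULT2B1. The untreated average is thus low for bright members other than GSTA4 and high for several dim ones.

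**Figure D1:**
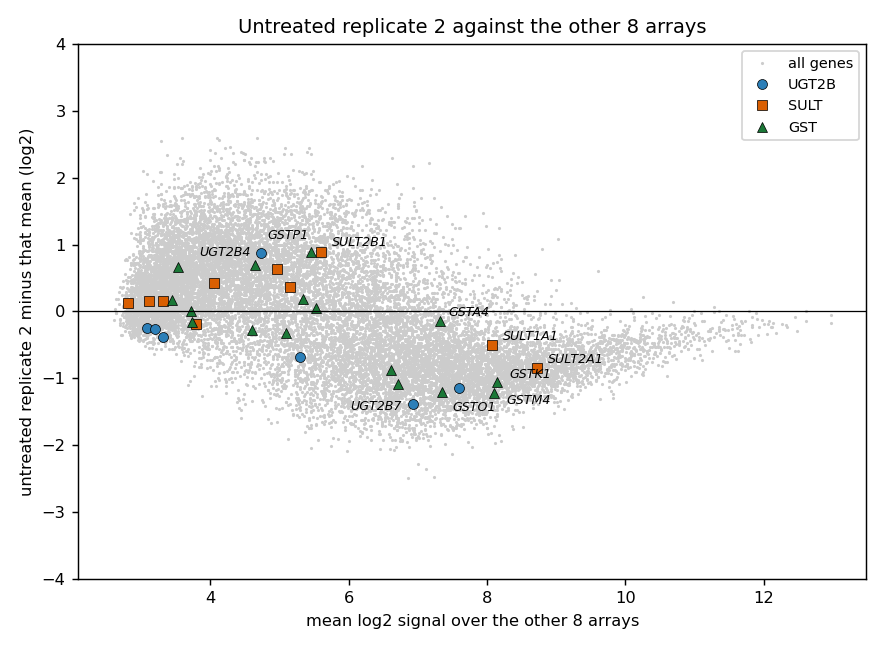
Deviation of untreated replicate 2 from the mean of the other 8 arrays (vertical axis, log2) against that mean (horizontal axis, log2 signal) for all genes as grey dots and for the members as coloured symbols. All 7 members among the 4422 brightest genes lie below 0, with GSTA4 nearest to it, and UGT2B4, GSTP1 and SULT2B1 lie above.

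At 200 ng/ml SPARC, 0 of 33 enzymes passed the test against untreated cells, the test being limma over all 17687 genes with Benjamini-Hochberg adjustment and a threshold of 0.05 on adjusted p. Over all genes 0% passed (limma, smallest adjusted p over members = 0.966). Of the members 18 were higher and 15 lower, and their median log2 difference was 0.054, against 0.027 over all genes. At an unadjusted p under 0.05 there were 0 members, beside 1.78% of all genes. The 3 arrays at 200 ng/ml did not overlap the 3 untreated arrays for 5 members (15.2%, against 6.98% of all genes), with GSTA4, GSTM1 and GSTM4 higher and SULT1C3 and SULT6B1 lower. Without untreated replicate 2 again 0 members passed (0% of all genes, limma, smallest adjusted p over members = 0.373), 14 were higher and 19 lower, and the median was −0.0245 for the members and −0.016 for all genes. On those 8 arrays 1 member, GSTO2, had an unadjusted p under 0.05, beside 11.3% of all genes, and 9 did not overlap (27.3%, against 31.5%). Both shares of members lay below the background on the 8 arrays, while the share without overlap lay above it on 9 arrays.

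At 800 ng/ml SPARC, again 0 of 33 enzymes passed the test against untreated cells, and 0% of all genes did (limma, smallest adjusted p over members = 0.659). Higher signals outnumbered lower ones by 22 to 11, with a median log2 difference of 0.088, against 0.044 over all genes. GSTM3 was higher and SULT4A1 lower at an unadjusted p under 0.05, which is 6.06% of the members beside 4.17% of all genes. GSTM3, SULT2A1 and UGT2B11 were higher and SULT4A1 lower without overlap of the groups (4 members, 12.1%, against 11.2% of all genes), a share near the background. Without untreated replicate 2 the split was 18 higher to 15 lower, with a median of 0.019, against −0.0060 over all genes, and 0 members passed (0% of all genes, limma, smallest adjusted p over members = 0.945). An unadjusted p under 0.05 was then reached by 0 members, beside 5.36% of all genes, and 6 members did not overlap (18.2%, against 22.3%).

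Between the doses, at 800 against 200 ng/ml, 0 members passed on 9 arrays (0% of all genes, limma, smallest adjusted p over members = 0.999) and 0 on 8 arrays (0% of all genes, limma, smallest adjusted p over members = 0.202). The members were evenly divided, 17 higher and 16 lower, with a median log2 difference of 0.0044, against 0.013 over all genes. UGT2B28 had an unadjusted p under 0.05 on 9 arrays (3.03% of the members, against 2.41% of all genes), whereas UGT2B28 and GSTM3 had one on 8 arrays (6.06%, against 15.3%). GSTM3, SULT2A1 and UGT2B28 were higher at 800 ng/ml in every array than in any array at 200 ng/ml, which is 9.09% of the members and below the 21.9% of all genes that did not overlap in this comparison. Leaving out the untreated array does not alter which arrays are compared here, only the estimate of the spread. Of the 8 arrays, 200 ng/ml replicate 1 had the narrowest SD over transcript clusters, 1.91, against 1.97 to 2.0. Its median deviation from the 8-array mean was −0.073 over the brightest 25% of all genes and 0.074 over the dimmest 25%. The part of this array in the differences between the doses was not tested. The comparisons of both doses with untreated cells share the untreated arrays, and those of 800 ng/ml share the 800 ng/ml arrays.

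The precision set what could be seen. The 95% interval of a member's difference reached a median of 1.43-fold to either side of the estimate on 9 arrays, with 1.32 to 1.68-fold over the members. On 8 arrays the median reach was 1.32-fold against untreated cells and 1.28-fold between the doses. With these intervals a p that misses the threshold does not show that an enzyme was unaltered. In RNA from whole cultures, fewer cells that express a gene and less of its RNA per cell cannot be told apart.

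**Figure D2:**
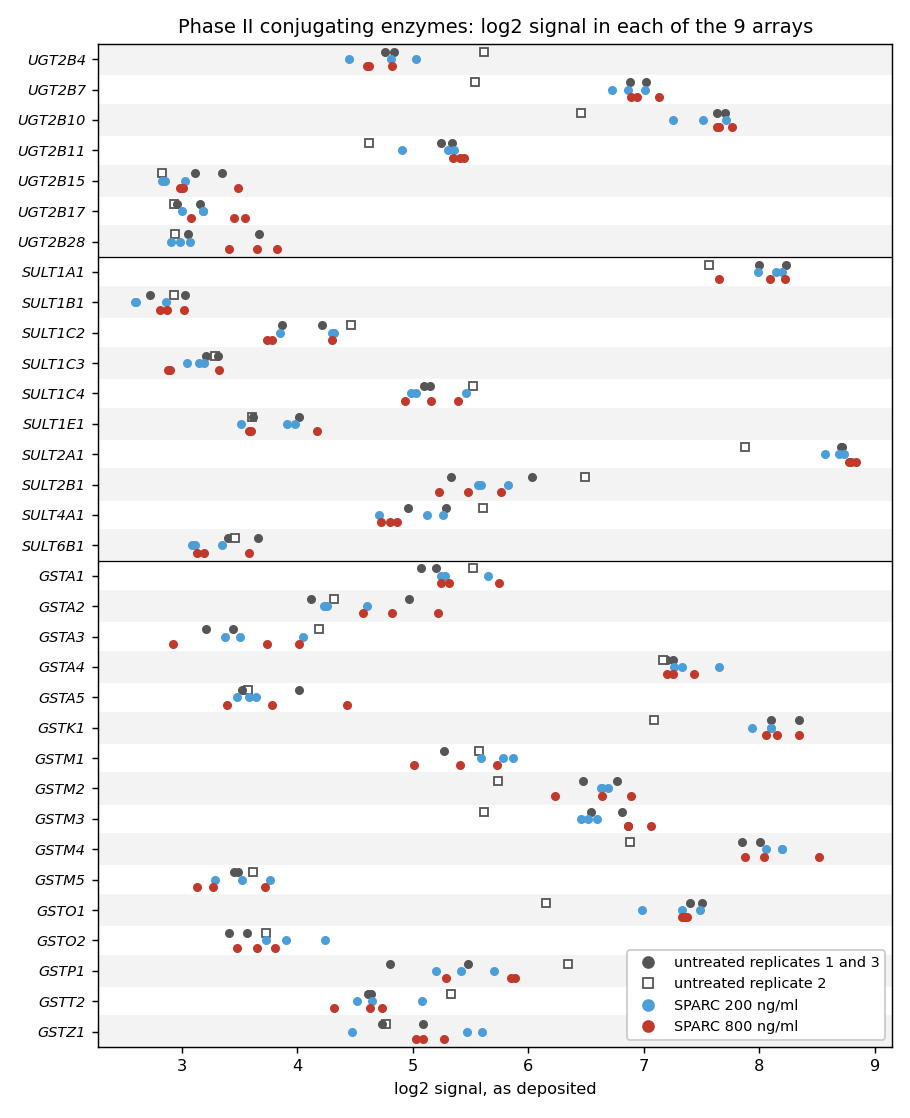
Log2 signal (horizontal axis) of each of the 33 members (rows) in each of the 9 arrays, with 1 symbol per array, coloured by group, and untreated replicate 2 as an open square. For UGT2B7 and for bright members such as UGT2B10, SULT2A1 and GSTK1 the open square lies left of the other 8 symbols, which lie close together.

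**Figure D3:**
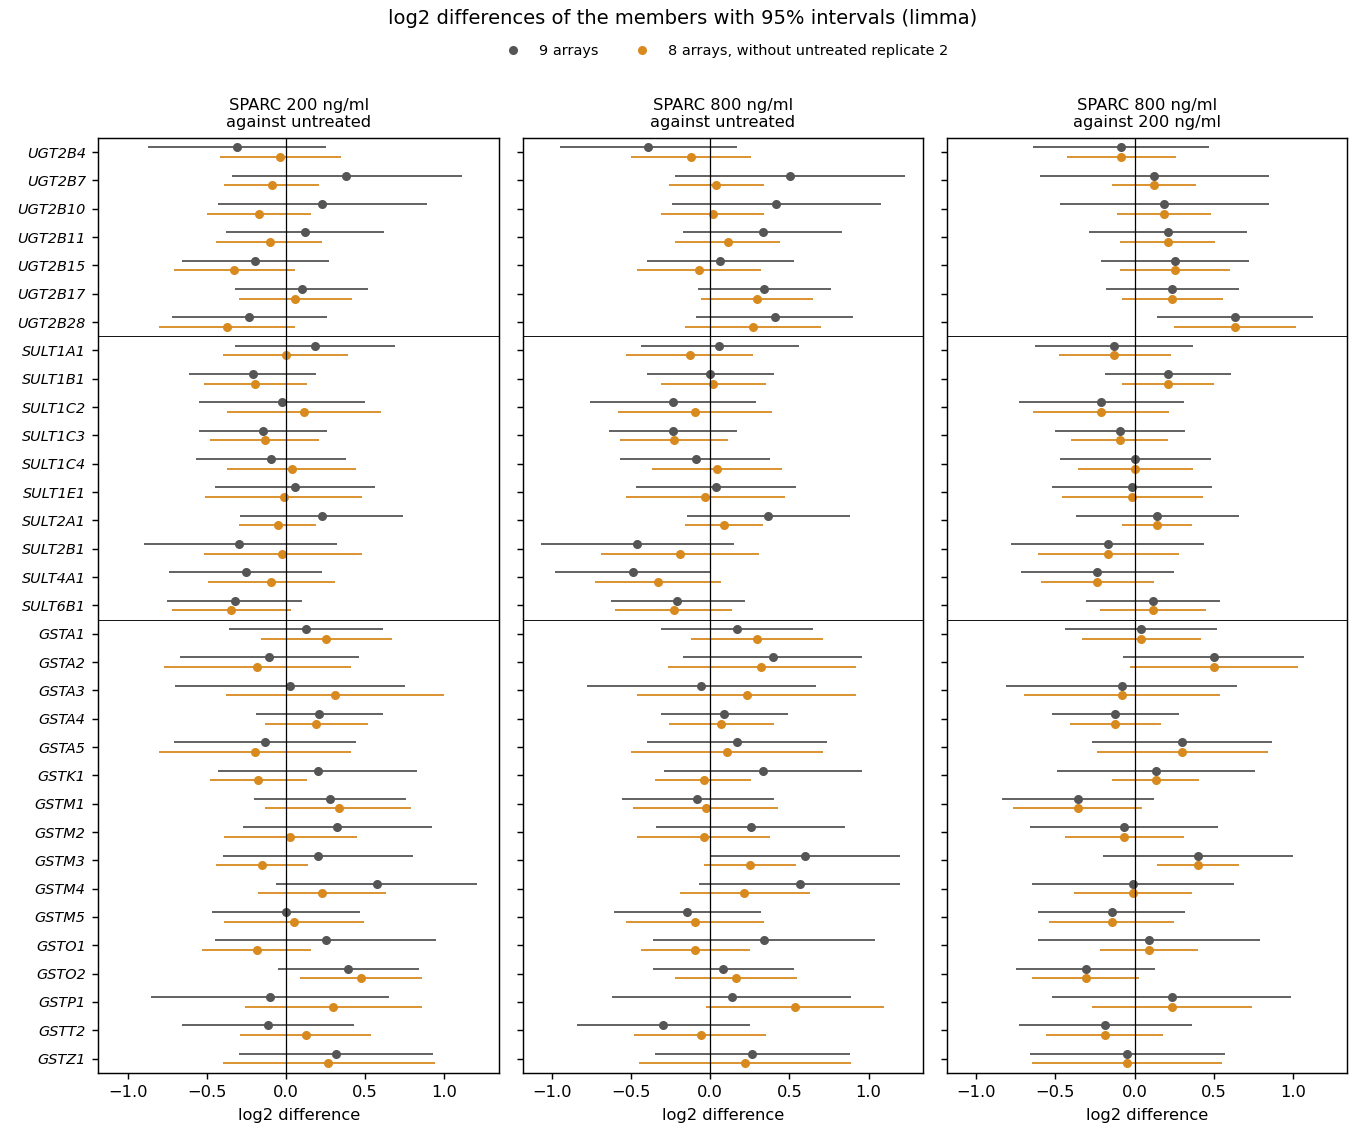
Log2 difference of each member (points) with its 95% interval (lines) from limma, in the 3 comparisons, with all 9 arrays in grey and with the 8 arrays without untreated replicate 2 in orange. Most intervals include 0, and the estimates against untreated cells move between the array sets, as for UGT2B7 (0.51 and 0.037 at 800 ng/ml).

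UGT2B enzymes glucuronidate steroids, bile acids and drugs. UGT2B7, which acts on morphine, bile acids and steroids, had 6.88, 5.54 and 7.02 in untreated replicates 1, 2 and 3, 6.72, 7.01 and 6.86 at 200 ng/ml and 7.13, 6.94 and 6.89 at 800 ng/ml. UGT2B10, known for N-glucuronidation of nicotine and other amines, had 7.70, 6.46 and 7.63 in untreated cells, 7.25, 7.71 and 7.51 at 200 ng/ml and 7.76, 7.65 and 7.63 at 800 ng/ml. For both enzymes the groups overlapped, and 1 untreated array lay more than 1 log2 unit under all others of its group. The 800 ng/ml difference from untreated cells was 0.51 for UGT2B7 (95% interval −0.22 to 1.23) and 0.42 for UGT2B10 (−0.24 to 1.08), and without untreated replicate 2 it was 0.037 (−0.26 to 0.34) and 0.016 (−0.31 to 0.34). UGT2B4, an enzyme of bile acid glucuronidation, had 4.76, 5.62 and 4.84 in untreated cells, 5.03, 4.45 and 4.81 at 200 ng/ml and 4.62, 4.82 and 4.60 at 800 ng/ml. Here the odd array was the high one, and the 800 ng/ml difference of −0.39 became −0.12 without it.

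UGT2B28, a steroid-conjugating isoform, had the largest difference of the 33 members between the doses. It had a low signal, which without detection calls cannot be told from background. Its signal was 3.05, 2.94 and 3.67 in untreated cells, 2.91, 3.07 and 2.98 at 200 ng/ml and 3.41, 3.65 and 3.82 at 800 ng/ml. All 800 ng/ml values lay above all 200 ng/ml values, while untreated replicate 3 lay among the 800 ng/ml values. The log2 difference of 800 against 200 ng/ml was 0.64 ± 0.22 (SE, 95% interval 0.14 to 1.13, limma, adjusted p = 0.999), a ratio of 1.55, and adjusted p was 0.202 on 8 arrays. Against untreated cells it was 0.41 (−0.09 to 0.90) at 800 ng/ml and −0.23 (−0.72 to 0.26) at 200 ng/ml. On 8 arrays these differences were 0.27 (−0.16 to 0.70) and −0.37 (−0.80 to 0.06).

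The androgen-inactivating enzymes UGT2B15 and UGT2B17 had low signals in every group. UGT2B15 had 3.35, 2.83 and 3.11 in untreated cells, 2.85, 2.83 and 3.03 at 200 ng/ml and 2.98, 3.01 and 3.49 at 800 ng/ml. UGT2B17 had 3.16, 2.93 and 2.96 in untreated cells, 3.0, 3.18 and 3.18 at 200 ng/ml and 3.45, 3.08 and 3.55 at 800 ng/ml. Groups overlapped for both, and the 800 ng/ml differences from untreated cells were 0.064 (−0.40 to 0.53) for UGT2B15 and 0.34 (−0.08 to 0.76) for UGT2B17. UGT2B11 had 5.34, 4.62 and 5.24 in untreated cells, 5.36, 5.30 and 4.91 at 200 ng/ml and 5.44, 5.35 and 5.41 at 800 ng/ml. The 800 ng/ml and untreated arrays just parted, with a difference of 0.33 (−0.17 to 0.83) that was 0.11 on 8 arrays. Of the 7 UGT2B enzymes 6 were higher at 800 than at 200 ng/ml, all but UGT2B4, with a median of 0.21, against 0.013 over all genes. As medians of deviations from the 8-array mean, the subfamily stood at 0.14, 0.048 and 0.12 in the 800 ng/ml arrays, against −0.21, −0.019 and −0.069 in the 200 ng/ml arrays. These neighbouring, similar genes are not independent measurements, and untreated replicates 1 and 3 stood at 0.020 and 0.030, between the doses.

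Sulfotransferases of liver act on phenols, estrogens, dehydroepiandrosterone and bile acids. SULT2A1, which sulfonates dehydroepiandrosterone and bile acids, had 8.72, 7.88 and 8.71 in untreated cells, 8.57, 8.69 and 8.73 at 200 ng/ml and 8.79, 8.84 and 8.78 at 800 ng/ml. Apart from untreated replicate 2 its 8 values spanned 0.27 on the log2 scale, the narrowest range of any member. The 800 ng/ml arrays lay above all others, with a difference from untreated cells of 0.37 (95% interval −0.15 to 0.88) on 9 arrays and of 0.089 (−0.16 to 0.33) on 8 arrays. Its difference between the doses was 0.14 (−0.08 to 0.36 on 8 arrays, limma, adjusted p = 0.5). SULT1A1, the main phenol sulfotransferase of liver, had 8.0, 7.56 and 8.23 in untreated cells, 7.99, 8.14 and 8.20 at 200 ng/ml and 7.65, 8.22 and 8.09 at 800 ng/ml. Its groups overlapped, and the 800 ng/ml difference of 0.057 (−0.44 to 0.56) became −0.13 (−0.53 to 0.27) without untreated replicate 2. SULT1E1, the estrogen sulfotransferase, had 4.01, 3.61 and 3.62 in untreated cells, 3.91, 3.98 and 3.51 at 200 ng/ml and 3.58, 3.60 and 4.17 at 800 ng/ml. Its 3 group means, 3.75, 3.80 and 3.78, lay closer together than the SD of 0.23 to 0.34 within the groups.

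SULT4A1 is a sulfotransferase-like protein of brain with no settled substrate. Its signal was 5.29, 5.61 and 4.96 in untreated cells, 5.12, 4.71 and 5.26 at 200 ng/ml and 4.80, 4.72 and 4.86 at 800 ng/ml. Every 800 ng/ml value lay below every untreated value, and the 200 ng/ml values overlapped both groups. The log2 difference of 800 ng/ml from untreated cells was −0.49 ± 0.22 (SE, 95% interval −0.98 to −0.00, limma, adjusted p = 0.659), and −0.33 (−0.73 to 0.07) on 8 arrays. SULT6B1 had 3.40, 3.46 and 3.66 in untreated cells, 3.11, 3.35 and 3.09 at 200 ng/ml and 3.19, 3.13 and 3.58 at 800 ng/ml. Every 200 ng/ml value lay below every untreated value. Its 200 ng/ml difference was −0.33 (−0.75 to 0.10) on 9 arrays and −0.35 (−0.72 to 0.03) on 8, so it differed little between the array sets. SULT2B1, which sulfonates cholesterol, had 5.23, 5.48 and 5.76 at 800 ng/ml, against 6.03, 6.49 and 5.33 in untreated cells, with overlap. Its difference of −0.46 (−1.07 to 0.15) was −0.19 without untreated replicate 2. SULT1C3 had 3.15, 3.04 and 3.19 at 200 ng/ml, against 3.21, 3.29 and 3.31 in untreated cells, without overlap, a difference of −0.15 (−0.55 to 0.26). SULT1B1, which sulfonates thyroid hormones, and the SULT1C enzymes had differences of −0.24 to 0.21 over the 3 comparisons on 9 arrays, with an unadjusted p of 0.229 or more. Over the family 3 of 10 members were higher at 200 ng/ml than in untreated cells (median −0.12) and 4 of 10 at 800 ng/ml (median −0.15), and on 8 arrays it was 2 (median −0.039) and 3 (median −0.11).

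GST enzymes of the alpha class, the most plentiful GST proteins of hepatocytes, also bind bilirubin and bile acids. GSTA1 had 5.07, 5.52 and 5.20 in untreated cells, 5.28, 5.65 and 5.24 at 200 ng/ml and 5.24, 5.75 and 5.31 at 800 ng/ml. GSTA2, whose start region is nearly that of GSTA1 (printed above), had 4.97, 4.32 and 4.12 in untreated cells, 4.26, 4.60 and 4.23 at 200 ng/ml and 5.22, 4.57 and 4.82 at 800 ng/ml. On 9 arrays the groups overlapped for both. The GSTA1 differences from untreated cells were 0.125 (−0.36 to 0.61) at 200 ng/ml and 0.168 (−0.31 to 0.65) at 800 ng/ml. On 8 arrays they were 0.255 (−0.16 to 0.67) and 0.297 (−0.12 to 0.71). Untreated cells and either dose then did not overlap for GSTA1, beside 31.5% and 22.3% of all genes. At 800 ng/ml and in untreated cells GSTA1 was highest in replicate 2 and GSTA2 in replicate 1. At 200 ng/ml both were highest in replicate 2. GSTA2 had a difference between the doses of 0.50 ± 0.26 (SE, 95% interval −0.07 to 1.07, limma, adjusted p = 0.999), and 1 array at 800 ng/ml lay below the highest at 200 ng/ml. GSTA4, which detoxifies the lipid aldehyde 4-hydroxynonenal, had 7.20, 7.17 and 7.25 in untreated cells, 7.26, 7.33 and 7.65 at 200 ng/ml and 7.43, 7.25 and 7.20 at 800 ng/ml. The 200 ng/ml arrays lay just above the untreated ones, and the difference was 0.21 (−0.19 to 0.61) on 9 arrays and 0.19 (−0.13 to 0.52) on 8. GSTA3, which serves steroid hormone synthesis, had 3.44, 4.19 and 3.21 in untreated cells, 4.05, 3.37 and 3.50 at 200 ng/ml and 3.74, 2.92 and 4.01 at 800 ng/ml. GSTA5 had 4.01, 3.57 and 3.52 in untreated cells, 3.48, 3.64 and 3.58 at 200 ng/ml and 3.39, 3.78 and 4.43 at 800 ng/ml. Both overlapped in every comparison, and the spread within the 800 ng/ml group, an SD of 0.56 for GSTA3 and 0.53 for GSTA5, exceeded each of their differences. Of the 5 alpha class members 4 were higher at 800 ng/ml than in untreated cells on 9 arrays (median 0.17), and 3 were higher at 200 ng/ml on either array set (medians 0.025 and 0.19). On 8 arrays all 5 were higher at 800 ng/ml than in untreated cells, beside 8533 of all 17687 genes. Their differences were 0.071 (GSTA4) to 0.32 (GSTA2), with a median of 0.23, against −0.0060 over all genes. Unadjusted p was 0.141 or more (limma). These neighbouring genes, among them the similar pair GSTA1 and GSTA2, are not independent measurements.

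In the mu class the enzymes GSTM1 to GSTM5 lie side by side. GSTM3, a form known from brain and testis as well as liver, had 6.54, 5.62 and 6.81 in untreated cells, 6.52, 6.46 and 6.59 at 200 ng/ml and 6.86, 7.06 and 6.86 at 800 ng/ml. The 800 ng/ml values lay above all 6 others, though untreated replicate 3 came close to them. Against untreated cells the log2 difference was 0.60 ± 0.27 (SE, 95% interval 0.00 to 1.20, limma, adjusted p = 0.659), a ratio of 1.52, and without untreated replicate 2 it was 0.25 (−0.04 to 0.54), a ratio of 1.19. Between the doses it was 0.40 on both array sets, with an interval of −0.20 to 1.0 on 9 arrays and of 0.14 to 0.66 on 8 (limma, adjusted p = 0.212). GSTM4 had 8.01, 6.88 and 7.85 in untreated cells, 8.06, 8.20 and 8.20 at 200 ng/ml and 7.88, 8.04 and 8.52 at 800 ng/ml. Its differences from untreated cells, 0.58 (−0.06 to 1.21) at 200 ng/ml and 0.57 (−0.07 to 1.20) at 800 ng/ml, were 0.23 (−0.18 to 0.63) and 0.22 (−0.19 to 0.63) without untreated replicate 2. GSTM1, which conjugates epoxides and other electrophiles, had 5.56, 5.57 and 5.27 in untreated cells, 5.59, 5.78 and 5.87 at 200 ng/ml and 5.01, 5.41 and 5.73 at 800 ng/ml. For GSTM1 the 200 ng/ml group was the highest, by 0.28 (−0.20 to 0.76) over untreated cells and by 0.33 (−0.13 to 0.79) on 8 arrays. Its 800 ng/ml difference from 200 ng/ml was −0.36 (−0.84 to 0.12). GSTM2 had 6.77, 5.74 and 6.47 in untreated cells, 6.64, 6.69 and 6.63 at 200 ng/ml and 6.23, 6.64 and 6.89 at 800 ng/ml. GSTM5 had 3.49, 3.62 and 3.45 in untreated cells, 3.29, 3.52 and 3.76 at 200 ng/ml and 3.72, 3.13 and 3.27 at 800 ng/ml. For both the groups overlapped in every comparison, with differences of −0.15 to 0.32 on 9 arrays.

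Among the remaining classes, GSTP1, a pi class enzyme that is sparse in normal hepatocytes and raised in many tumours, varied widely. It had 5.48, 6.34 and 4.80 in untreated cells, 5.42, 5.20 and 5.70 at 200 ng/ml and 5.85, 5.88 and 5.29 at 800 ng/ml. The untreated arrays alone spanned the values of both doses, with a group SD of 0.77, and the 800 ng/ml difference was 0.14 (−0.62 to 0.89) on 9 arrays and 0.54 (−0.03 to 1.10) on 8. GSTO1 and GSTO2, omega class enzymes that reduce dehydroascorbate and methylated arsenic, had unlike patterns. GSTO1 had 7.50, 6.15 and 7.40 in untreated cells, 6.98, 7.49 and 7.33 at 200 ng/ml and 7.37, 7.33 and 7.36 at 800 ng/ml. Its 200 ng/ml difference of 0.25 (−0.45 to 0.95) turned to −0.18 (−0.53 to 0.16) without untreated replicate 2. GSTO2 had 3.41, 3.73 and 3.56 in untreated cells, 4.24, 3.73 and 3.90 at 200 ng/ml and 3.48, 3.65 and 3.81 at 800 ng/ml. Its 200 ng/ml difference was 0.39 ± 0.20 (SE, 95% interval −0.05 to 0.84, limma, adjusted p = 0.966) on 9 arrays and 0.48 (0.09 to 0.86, limma, adjusted p = 0.373) on 8. At 800 ng/ml GSTO2 lay partly among the untreated values, with a difference of 0.082 (−0.36 to 0.53).

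GSTK1, the kappa class enzyme of mitochondria and peroxisomes, had 8.10, 7.09 and 8.34 in untreated cells, 8.10, 7.94 and 8.10 at 200 ng/ml and 8.15, 8.06 and 8.34 at 800 ng/ml. On 9 arrays its groups overlapped, and the 800 ng/ml difference was 0.34 (−0.29 to 0.96) on 9 arrays and −0.042 (−0.35 to 0.26) on 8. At 200 ng/ml the 8-array difference was −0.18 (−0.48 to 0.13), just without overlap, beside 31.5% of all genes. GSTZ1, the maleylacetoacetate isomerase of tyrosine breakdown, had 5.09, 4.77 and 4.73 in untreated cells, 4.47, 5.47 and 5.60 at 200 ng/ml and 5.03, 5.27 and 5.09 at 800 ng/ml. The 200 ng/ml arrays of GSTZ1 spanned all others. It had differences of −0.047 to 0.31 over the 3 comparisons on 9 arrays, and GSTT2 had −0.30 to −0.11. Over all 16 GST enzymes 11 were higher at 200 ng/ml than in untreated cells on 9 arrays (median 0.20) and 11 on 8 arrays (median 0.16). At 800 ng/ml 12 were higher on 9 arrays (median 0.17) and 10 on 8 arrays (median 0.13), against medians of 0.044 and −0.0060 over all genes. Between the doses 7 were higher and 9 lower, with a median of −0.029.

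**Figure D4:**
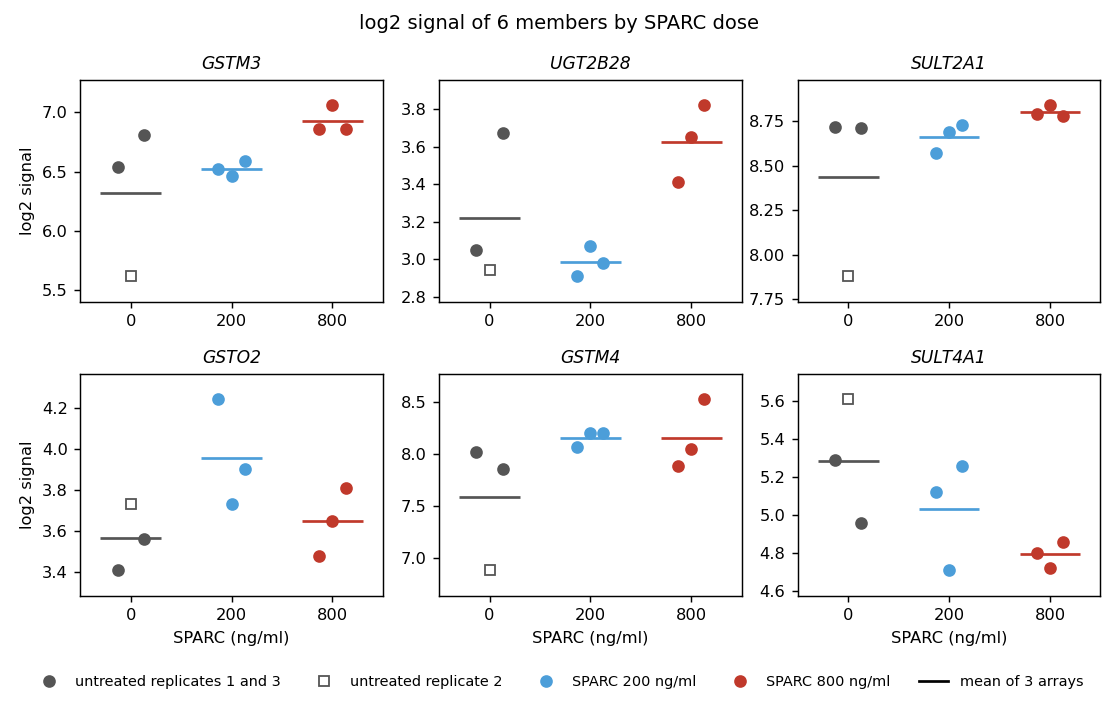
Log2 signal (vertical axis, a scale of its own in each panel that does not start at 0) of 6 members at 0, 200 and 800 ng/ml SPARC (horizontal axis), with 1 symbol per array and a line at the mean of 3 arrays. GSTM3, UGT2B28 and SULT2A1 were highest at 800 ng/ml and SULT4A1 lowest, while the open square, untreated replicate 2, lowers the untreated mean of GSTM3, SULT2A1 and GSTM4.

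**Figure D5:**
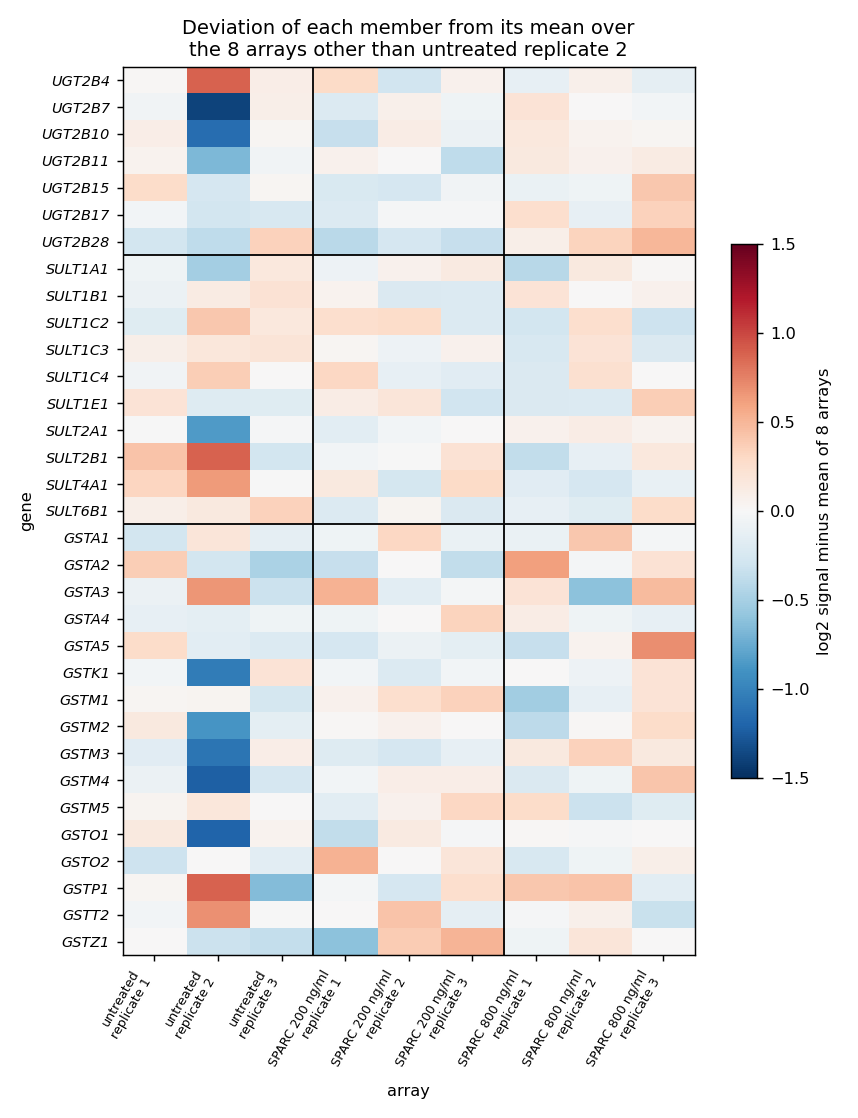
Deviation of each member (rows) from its own mean over the 8 arrays other than untreated replicate 2, for each of the 9 arrays (columns), as colour on a log2 scale that ends at −1.5 and 1.5. Untreated replicate 2 carries the strongest colours, from −1.39 for UGT2B7, and the other 8 columns are pale by comparison.

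Spread within groups differed between members. On the 8 arrays without untreated replicate 2 the pooled SD within groups was 0.06 for SULT2A1, 0.12 for GSTM3, 0.13 for UGT2B7 and GSTK1 and 0.15 for UGT2B10 and GSTA4. It was 0.43 for GSTA3, 0.41 for GSTZ1, 0.37 for GSTA5 and 0.36 for GSTA2. Among the 33 members 22 had a mean in the dimmer part of the table, 11 in each of the 2 lowest of 4 equal bins of genes, and 4 and 7 lay in the next and the brightest bin. In the dimmest bin untreated replicate 2 was the highest array for 1 of 11 members (9.09%), against 48.6% of all genes there, a description without a test.

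Genes that supply the donors, remove or export the conjugates, or regulate the enzymes were counted as lists. Of the donor supply list, 12 of 15 genes were measured and 0 passed in any comparison (limma). At 800 ng/ml 11 of 12 were higher than in untreated cells (median 0.35), and on 8 arrays 8 of 12 were (median 0.030). Between the doses 11 of 12 were higher at 800 ng/ml, beside 9249 of all 17687 genes. The median was 0.21 on both array sets, which hold the same dose arrays, against 0.013 over all genes. The exception was PAPSS2, a PAPS synthase, with −0.41 (−1.16 to 0.33). UGP2, which makes UDP-glucose, had 7.26, 7.27 and 7.39 at 800 ng/ml, against 7.05, 7.16 and 6.95 at 200 ng/ml, without overlap, a difference of 0.25 (0.02 to 0.49 on 8 arrays, limma, adjusted p = 0.3). GCLC, the catalytic subunit of the first enzyme of glutathione synthesis, had 8.07, 7.93 and 7.96 at 800 ng/ml, against 7.52, 7.82 and 7.81 at 200 ng/ml, a difference of 0.27 (0.00 to 0.53 on 8 arrays, limma, adjusted p = 0.325). At 200 ng/ml against untreated cells the direction depended on untreated replicate 2: 10 of 12 were higher on 9 arrays (median 0.115), and 11 of 12 were lower on 8 arrays (median −0.13). The transporters SLC35B3 (PAPS into the Golgi) and SLC35D1 (UDP-glucuronic acid into the endoplasmic reticulum) had differences of 0.38 and 0.36 at 200 ng/ml on 9 arrays and of −0.051 and −0.080 on 8.

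At an unadjusted p under 0.05 on 9 arrays, the 5 pathway lists had UGT3A2 at 800 ng/ml against untreated cells and 0 other genes, beside 1.78%, 4.17% and 2.41% of all genes in the 3 comparisons. On 8 arrays such genes at 200 ng/ml against untreated cells were ABCG2, STS, GGT7 and KEAP1, beside 11.3% of all genes. ARSA and BAAT were the 2 such genes at 800 ng/ml against untreated cells, beside 5.36%. Between the doses they were UGP2, PAPSS1, GCLC and ABCG2, beside 15.3%. Of the export list 7 of 9 genes were measured, 0 passed, and 5 of 7 were higher at 800 than at 200 ng/ml (median 0.082). ABCG2, an exporter of sulfate conjugates, had 7.14, 5.72 and 7.23 in untreated cells, 6.63, 6.89 and 6.59 at 200 ng/ml and 6.90, 7.14 and 7.12 at 800 ng/ml. The ABCG2 difference at 200 ng/ml was 0.0053 on 9 arrays and −0.48 (−0.79 to −0.17, limma, adjusted p = 0.323) on 8. ABCC3 and ABCC2, exporters into blood and bile, had differences of 0.57 and 0.34 at 800 ng/ml from untreated cells that were 0.10 and 0.074 on 8 arrays. ABCC4 had 0.21 between the doses. Of genes that remove conjugates or process them further, 12 of 13 were measured and 0 passed, with 6 of 12 higher at 800 ng/ml than in untreated cells (median 0.0056). On 9 arrays ARSD, an arylsulfatase, had 0.49 (limma, adjusted p = 0.659) there and KYAT1 had −0.32. ARSD signals were 5.80, 4.99 and 5.44 in untreated cells and 6.13, 5.82 and 5.75 at 800 ng/ml. EPHX1, the microsomal epoxide hydrolase, had 0.37 at 200 ng/ml on 9 arrays. Its signals were 9.09, 7.99 and 8.94 in untreated cells, lowest in replicate 2, and 8.93, 9.13 and 9.09 at 200 ng/ml. GGT5 and GGT7 had −0.31 and −0.27 between the doses.

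Other conjugating enzymes were measured for 16 of 18 genes and 0 passed, with 9 of 16 higher at 800 ng/ml than in untreated cells (median 0.016). UGT3A2, a glycosyltransferase that uses other sugars, had a difference of −0.75 (−1.49 to −0.01, limma, adjusted p = 0.659) that was −0.35 on 8 arrays, and MGST3, a microsomal GST, had 0.62 and 0.24. At 200 ng/ml on 9 arrays GLYATL1 had −0.35 and the arylamine acetyltransferase NAT1 had 0.35. Of the regulator list 14 of 19 genes were measured and 0 passed, with 9 of 14 higher at 800 ng/ml than in untreated cells (median 0.11) and 5 of 14 on 8 arrays (median −0.094). AHR, the receptor that binds the GCGTG motif, had 0.315 (−0.17 to 0.80) at 800 ng/ml and 0.079 on 8 arrays, and ESRRG had −0.49 and −0.11. CEBPA, a hepatocyte transcription factor, had 0.47 at 200 ng/ml on 9 arrays. Its signals were 6.86, 6.10 and 6.14 in untreated cells and 6.95, 6.95 and 6.61 at 200 ng/ml. Between the doses CEBPA had −0.28 and the xenobiotic receptor NR1I3 −0.185.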

How the data were processed

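Signals of 9 single-colour arrays of HepG2 cells were used as the log2 values that the authors deposited in 1 table of transcript clusters, and the log2 scale was inferred from their range. R 3.0 is named in the submitters' processing notes, and the normalization is not given in the sources used here. Of 21448 clusters 17709 had 1 gene symbol, 0 had several and 3739 had none, which gave 17687 genes after the brightest cluster per gene was kept. All 3 groups entered 1 linear model (limma 3.58.1, lmFit and eBayes, under R 4.3.3), with Benjamini-Hochberg adjustment over all genes and a threshold of 0.05. The procedure was tested on simulated data, which took their means and spread from the 8 arrays without untreated replicate 2. They held no array like it, so that test does not show how the fit of all 9 arrays deals with it. Samples were grouped by their labels. Arrays with the same replicate number were not treated as pairs, since no label says that the number marks a shared batch. Of the same-number correlations of deviations from group means, 1 of 9 exceeded 0.1. With 3 arrays per group these cannot show or exclude a shared batch. The text names 16 members set by function, the 4 members with the smallest p per comparison (21 in all) and, per pathway list, the 2 genes with the smallest p per comparison; all other members and list genes named, among them GSTA3, GSTA5, GSTM2, GSTM5, GSTZ1, SULT2B1, SULT1C3, UGT2B11, UGP2, GCLC, ABCG2 and those named on 8 arrays for an unadjusted p, were chosen after their values were seen. Marker lists of hepatocytes, cholangiocytes (mean signal 7.26 to 7.39), endothelium, fibroblasts, blood and neural cells are given by counts and levels. Single markers are named as examples, chosen after their values were seen, and 0 genes of these lists passed in any comparison (limma). The members and all lists were chosen with earlier results of these data known. In all 19 settings were tried. The number of arrays limits the precision.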

Additional observations from a re-analysis of the deposited data

How the results depend on the processing

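The median log2 difference of the members depended on the setting, against an SD of 0.086 of that median between replicates. At 200 ng/ml against untreated cells it was 0.0543, and leaving out 1 array gave −0.0245 (without untreated replicate 2) to 0.143. It was −0.0355 with array weights, 0.200 without the dimmest 25% of genes (21 members, against 0.070 over all genes) and 0.225 without the dimmest 50% (11 members, against 0.137). At 800 ng/ml against untreated cells it was 0.0881, with 0.0147 to 0.164 on leaving out 1 array, 0.258 without the dimmest 25% (against 0.117) and 0.340 without the dimmest 50% (against 0.209). Between the doses it was 0.0044, and leaving out 1 array gave −0.0219 to 0.113 (without 800 ng/ml replicate 1). The cause of these shifts was not tested. Array weights, whose fit gave a convergence warning, called 1 member at 200 ng/ml, GSTO2 (0.48, limma, adjusted p = 0.0182, with 1971 genes called in all), and 1 at 800 ng/ml against untreated cells, UGT2B28 (0.58, limma, adjusted p = 0.0326, with 732 genes called in all). The other settings called 0 members, among them the replicate block (medians 0.0543, 0.0881 and 0.0044) and an alternative chosen after seeing the data, quantile normalization of the 8 arrays (medians −0.0260, 0.0216 and 0.0290). Without untreated replicate 2, 9, 5 and 0 of the 21 named members changed sign in the 3 comparisons. Without detection calls, low signals cannot be told from background.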

Other observations

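GSTT2 was measured by a second transcript cluster, which entered the comparisons only in the alternative that averages all clusters of a gene. Its signals were 4.41, 5.17 and 4.69 in untreated cells, 5.25, 4.38 and 4.86 at 200 ng/ml and 4.51, 4.70 and 4.17 at 800 ng/ml. The cluster used had 4.61, 5.33 and 4.64 in untreated cells, 4.65, 5.08 and 4.52 at 200 ng/ml and 4.63, 4.73 and 4.32 at 800 ng/ml. Both were highest, among untreated arrays, in untreated replicate 2, while at 200 ng/ml replicate 2 was the highest array of the used cluster and the lowest of the other.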
